A study of Mus musculus with 4 samples.

Results

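Genes of sterol and fatty acid synthesis were followed in mouse embryonic stem cells that had or lacked the B-type lamins, filament proteins of the nuclear lamina that underlie the inner nuclear membrane. The genes were a list of 30 symbols, made up of the enzymes of the mevalonate and sterol pathways, the proteins that control them and the main enzymes of fatty acid synthesis. Symbols were matched by Ensembl gene ID to the 37991 rows of a table of read counts. Of the 30, 29 were matched and passed the filter on low counts, which left 14027 genes to test. The level of Hmgcs1 was not analysed here, and only its promoter sequence was looked at. The study compared wild-type cells (wt) with cells null for both B-type lamins (dKO). Each genotype had 2 biological replicates, all 4 libraries carried the strain label ZHBTc4, and no treatment or time was given. ZHBTc4 is known as a stem cell line whose own Pou5f1 alleles are disrupted and replaced by a tetracycline-repressible Pou5f1 transgene. Each genotype may be 1 line, so loss of the lamins and a difference between lines cannot be told apart.

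Cholesterol is built from acetyl-CoA. The mevalonate enzymes make farnesyl diphosphate, which is used for protein prenylation, including that of B-type lamins, or is joined into squalene and carried through the sterol enzymes to cholesterol. The transcription factors SREBP2 and SREBP1, encoded by Srebf2 and Srebf1, are held in the endoplasmic reticulum by Scap and the Insig proteins when sterols are plentiful. When sterols fall they are released by proteolysis and turn on the genes of both pathways, with SREBP1 acting more on fatty acid synthesis. Dividing stem cells need both products for new membranes.

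Total counts per library ranged from 12899964 to 16697970, and levels are given as CPM, read counts relative to library size after scaling by TMM, edgeR's correction for library composition. Lmnb1 had 667 and 547 CPM in the wt libraries and 4.24 and 6.02 CPM in the dKO libraries, and Lmnb2 had 105 and 117 CPM against 2.52 and 3.28 CPM, so the targeted genes followed the labels. All 8 embryonic stem cell markers passed the filter, with a summed level of 4978 and 5008 CPM in wt and 5712 and 6108 CPM in dKO libraries. Of these, Zfp42, singled out once its values were known, had 666 and 613 CPM in wt and 1449 and 1435 CPM in dKO libraries (edgeR adjusted p = 0.0886). Of 7 fibroblast markers 3 passed, and the list summed to 6.25 and 8.68 CPM in wt and 4.79 and 5.49 CPM in dKO libraries. Of 5 hepatocyte and adipocyte markers, Alb, Cyp7a1, Plin1 and Fabp4 had 0 counts in every library, which allows up to 0.179 to 0.235 CPM at 3 counts, for counting error only. Primitive endoderm markers summed to 28.1 and 24.98 CPM in wt and 37.5 and 31.9 CPM in dKO libraries. The stem cell, fibroblast and primitive endoderm sums did not overlap between genotypes, and their part in the members' values was not tested. The stem cell sum did not describe its markers as a whole. Zfp42, Esrrb and Klf4 were higher in both dKO libraries and Dppa5a was lower, while Pou5f1, Sox2, Nanog and Tdgf1 overlapped. Of the primitive endoderm markers, Gata4 and Sox7 were higher in both dKO libraries and the rest overlapped. The summed level of 6 trophoblast markers was 151 and 294 CPM in wt replicates 1 and 2 and 88.3 and 217 CPM in dKO replicates 1 and 2, mostly Krt8. In bulk RNA, fewer cells of a type and less RNA per cell cannot be told apart.

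The pathway was expressed in both genotypes, and no member passed the main test between them. In edgeR's quasi-likelihood test with genotype alone in the model, 0 of 29 members had an adjusted p under 0.05, against 12 of 14027 genes (0.0855%). DESeq2 and limma-voom with that model also called 0 members. At an unadjusted p under 0.05 there was 1 member, Fdps, against 5.57% of all genes tested. The CPM of the genotypes did not overlap for 6 of 29 members (20.7%), of which 1 was higher and 5 were lower in dKO cells, against 33.6% of all genes tested in either direction. Log2 fold changes, dKO minus wt, ran from -0.54 to 0.32 with a median of -0.10, and the median over all genes tested was -0.002. The 95% interval lay within 1 log2 unit of 0, that is within a 2-fold change, for 25 members (86.2%, against 65.5% of all genes tested). The other 4 were Pmvk, Fdps, Tm7sf2 and Scd1, for which a 2-fold difference lay inside the interval. These shares also depend on the width of the intervals. The median SE was 0.19 for members and 0.21 for all genes tested, and the part of read depth was not tested.

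**Figure D1:**
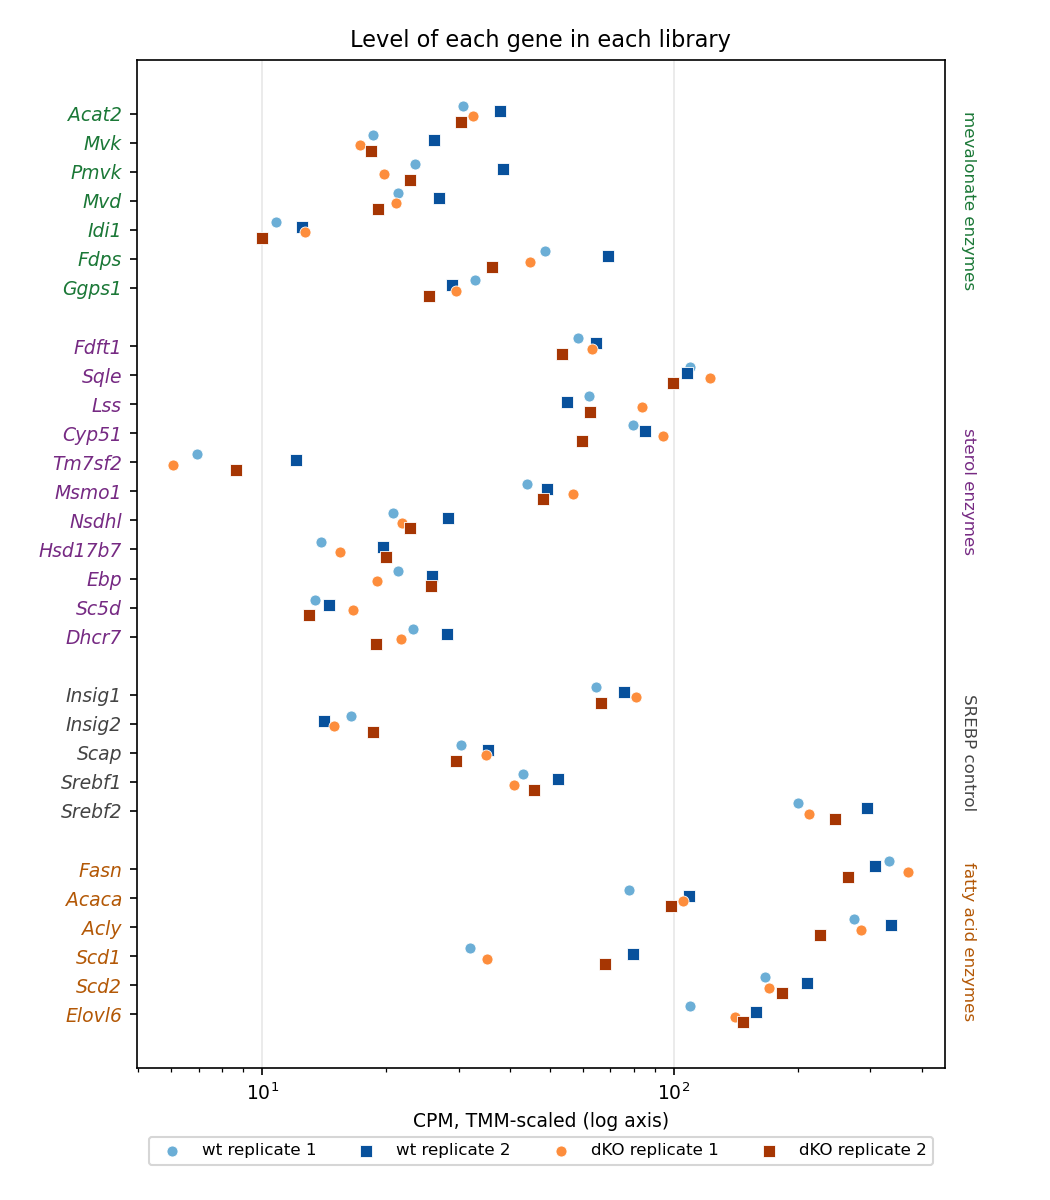
Level of each of the 29 genes in each of the 4 libraries, in TMM-scaled CPM on a log axis, with the genes in pathway order and the 4 libraries of a gene offset vertically. The genotypes overlap for 23 genes, and wt replicate 2 is the highest library for 18.

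**Figure D2:**
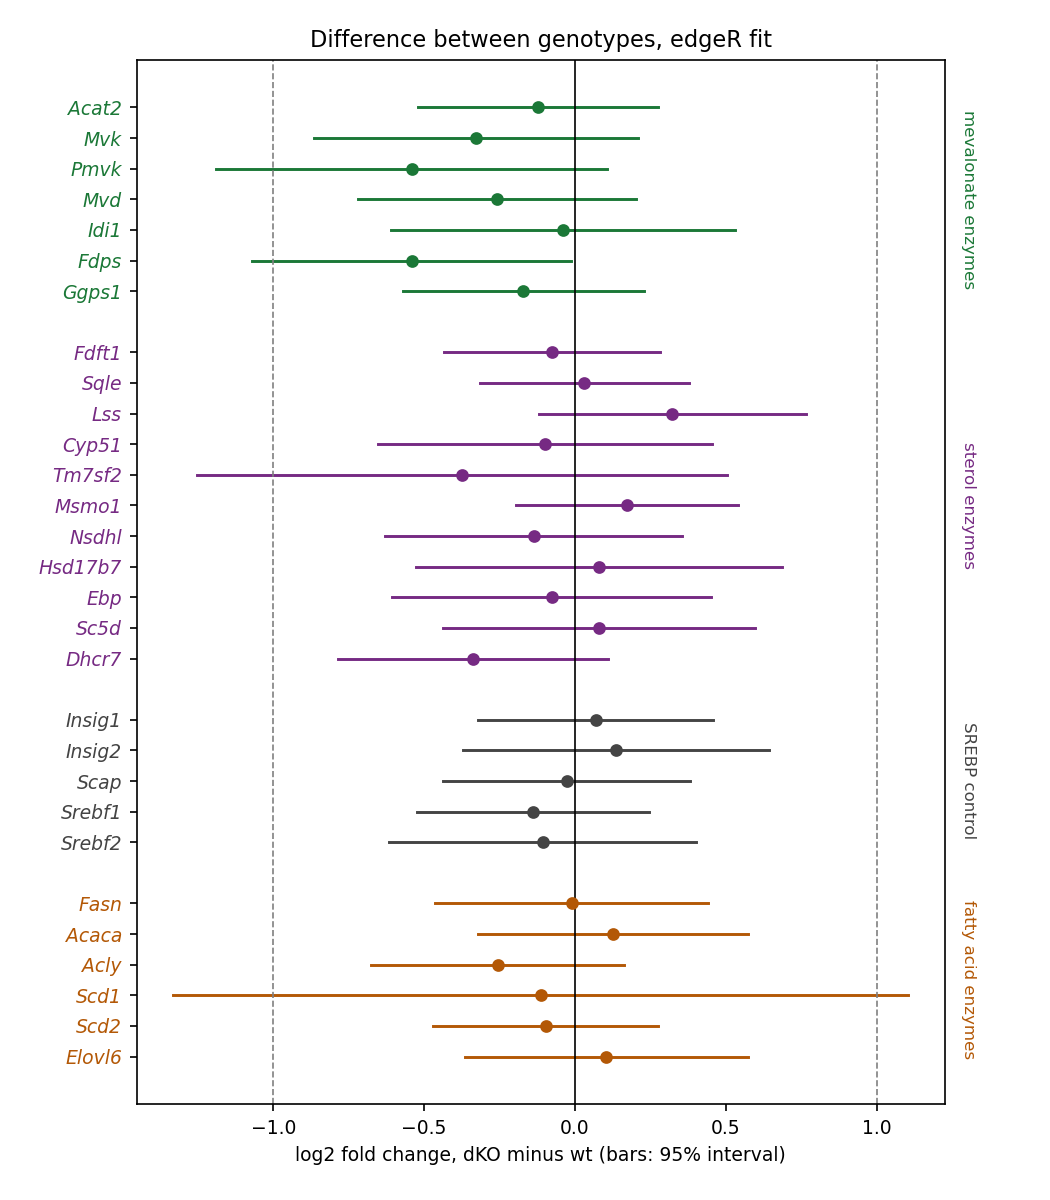
Log2 fold change (dKO minus wt) of each gene from the edgeR fit, with its 95% interval as a bar and dashed lines at 1 log2 unit either side of 0. All 7 mevalonate enzymes lie below 0 (as do 7061 of the 14027 genes tested), and Fdps has the only interval that does not reach 0.

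The 7 measured mevalonate enzymes all had log2 fold changes below 0 (median -0.26), as did 7061 of the 14027 genes tested. None of the 7 passed the test over all genes. For 5 of them wt replicate 2 was the highest library, and all were measured in the same libraries, so their signs are not independent. Summed over the 7, their level was 186 and 239.7 CPM in wt replicates 1 and 2 and 178 and 162 CPM in dKO replicates 1 and 2. Fdps, which makes farnesyl diphosphate, lies on chromosome 3 (88897514 to 88905881, in the positions of the deposited table). It had 48.5 and 69.0 CPM in the wt libraries and 44.8 and 36.1 CPM in the dKO libraries. Both dKO values were below both wt values, and wt replicate 2 stood above the rest. The means were 58.8 ± 14.5 and 40.4 ± 6.13 CPM (SD, n = 2 each). In edgeR the log2 fold change was -0.54 with an SE of 0.21, an unadjusted p of 0.0462 and an adjusted p of 0.888.

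Pmvk, phosphomevalonate kinase (chromosome 3, 89263040 to 89272935), had 23.5 and 38.5 CPM in wt and 19.8 and 22.8 CPM in dKO libraries. The genotypes did not overlap, but wt replicate 1 was close to dKO replicate 2. Its log2 fold change was -0.54 (95% interval -1.19 to 0.11, edgeR adjusted p = 0.911). Mvk, mevalonate kinase, had 18.5 and 26.2 CPM in wt and 17.3 and 18.4 CPM in dKO libraries, a log2 fold change of -0.33 (SE 0.22). Mvd, which makes isopentenyl diphosphate, had 21.3 and 26.9 CPM in wt and 21.2 and 19.1 CPM in dKO libraries, a log2 fold change of -0.26 (SE 0.19). In both genes wt replicate 2 was again the highest, and wt replicate 1 was near the dKO values.

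The remaining mevalonate enzymes overlapped between genotypes. Acat2, the cytosolic thiolase that starts the pathway, ranged from 30.4 to 37.7 CPM (log2 fold change -0.12). Idi1, the isomerase of isopentenyl diphosphate, ranged from 9.96 to 12.7 CPM (-0.04). Ggps1, which makes geranylgeranyl diphosphate, ranged from 25.4 to 32.8 CPM (-0.17). The size of this group's difference, and for some members its direction, leaned on wt replicate 2. Without that library the group's median log2 fold change was -0.08, and Acat2 and Idi1 turned positive, at 0.033 and 0.073. Fdps was then at -0.26, Pmvk at -0.14, Mvk at -0.06 and Mvd at -0.08. Ggps1 moved the other way, from -0.17 to -0.26. Without wt replicate 1 the group's median was -0.42.

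Promoter sequence was looked at because these genes share control by SREBP, which acts beside the CCAAT-binding factor NF-Y. RefSeq promoters (assembly GRCm38.p6, 250 bases before to 50 after each start) were matched for 25 of the 30 genes, all but Fdft1, Fdps, Scd1, Scd2 and Sqle. Gene positions of the deposited table do not match that assembly, so they cannot be set against the promoter positions. The stretches below are the 150 bases before the start of the matched members whose genotypes did not overlap in CPM, read 5′ to 3′ on the gene's strand. Capitals mark the letters CCAAT or, for the opposite strand, ATTGG. For Dhcr7 and Pmvk, which have 3 and 2 starts in the table, the start with a box is shown. In order, they lie at chr5:114444119-114444268 (plus strand), chr3:89454391-89454540 (plus), chr8:122443423-122443572 (minus), chr10:76531455-76531604 (plus) and chr7:143830064-143830213 (plus).
Mvk: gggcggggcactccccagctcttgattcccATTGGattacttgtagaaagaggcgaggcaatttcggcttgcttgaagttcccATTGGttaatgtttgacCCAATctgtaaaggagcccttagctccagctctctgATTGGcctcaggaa
Pmvk: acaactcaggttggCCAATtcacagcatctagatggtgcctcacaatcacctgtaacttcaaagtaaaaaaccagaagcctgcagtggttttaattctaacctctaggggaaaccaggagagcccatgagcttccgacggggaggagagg
Mvd: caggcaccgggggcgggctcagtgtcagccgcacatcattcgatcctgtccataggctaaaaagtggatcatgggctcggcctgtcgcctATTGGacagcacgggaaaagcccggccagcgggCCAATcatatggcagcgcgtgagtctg
Lss: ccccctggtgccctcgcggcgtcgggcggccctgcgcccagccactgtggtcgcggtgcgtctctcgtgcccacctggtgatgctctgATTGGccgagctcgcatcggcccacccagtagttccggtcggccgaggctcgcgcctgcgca
Dhcr7: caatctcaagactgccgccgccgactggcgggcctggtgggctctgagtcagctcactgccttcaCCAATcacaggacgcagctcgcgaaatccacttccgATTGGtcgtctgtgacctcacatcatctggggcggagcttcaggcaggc
The window of Mvk holds 4 boxes, those of Mvd and Dhcr7 hold 2 each and those of Pmvk and Lss hold 1 each. The other 2 starts of Dhcr7 and the other start of Pmvk have 0 boxes in the same stretch.

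Over all 25 genes, the letters CCAAT stood on either strand of at least 1 promoter for 21 (84.0%), against 41.1% of all genes in the table and 43.1% of the genes tested here. Counted by promoter, it was 22 of 33 (66.7%), against 37.4% of all promoters. Acat2, Acaca, Elovl6 and Scap had none in these windows. The 25 genes include Hmgcs1, whose level was not analysed. Of 46 boxes, 42 lay before the start and 27 of these within 100 bases of it. The Sp1 box GGGCGG, searched on both strands, was found for 20 of 25 genes (80.0%), against 38.2% of all genes and 69.2% of the genes tested. The letters TCACNCCAC, a form of the sterol regulatory element, were found for 1 gene (4.0%, against 1.44% of all genes). That gene was Hmgcs1, the mevalonate pathway's synthase, in the stretch below at chr13:119690188-119690247 (plus strand), where capitals mark the element.
Hmgcs1: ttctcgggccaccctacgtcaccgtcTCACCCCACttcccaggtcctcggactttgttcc
A match is a description of letters, not of a bound site. Other forms of the sterol regulatory element, and elements outside these windows, were not searched for.

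**Figure D3:**
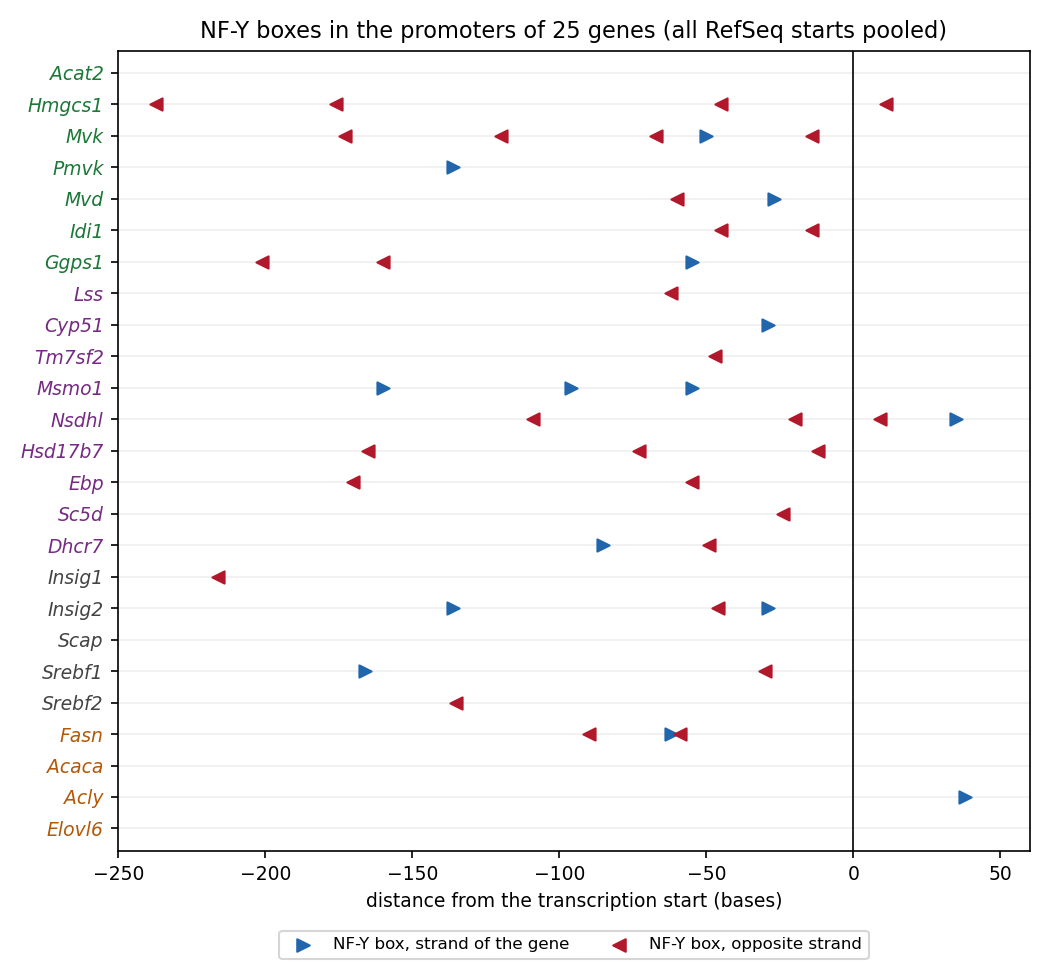
Distance of each NF-Y box (the letters CCAAT, on the gene's strand or the opposite one) from the transcription start in bases, for the 25 genes with a RefSeq promoter, from 250 bases before to 50 after the start. Most boxes lie within 100 bases before the start, and 4 genes have none.

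The 11 enzymes from squalene to cholesterol had a median log2 fold change of -0.08, with 5 positive and 6 negative values. Lss, lanosterol synthase (chromosome 10, 75994333 to 76019883), was the one member above both wt values in both dKO libraries. It had 62.0 and 54.8 CPM in wt and 83.7 and 62.4 CPM in dKO libraries. The second dKO library differed little from the first wt library. The means were 58.4 ± 5.07 and 73.0 ± 15.1 CPM (SD, n = 2 each), and edgeR gave 0.32 log2 units with an SE of 0.18 (adjusted p = 0.942). The value was 0.099 without dKO replicate 1 and 0.52 without dKO replicate 2. Dhcr7, whose enzyme makes cholesterol from 7-dehydrocholesterol (chromosome 7, 151009050 to 151034315), went the other way. It had 23.2 and 28.1 CPM in wt and 21.7 and 18.9 CPM in dKO libraries, a difference of -0.34 log2 units (SE 0.18, adjusted p = 0.942 in edgeR).

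Msmo1, a C4-methyl sterol oxidase, had 44.0 and 49.2 CPM in wt and 57.0 and 48.1 CPM in dKO libraries, with overlap and a log2 fold change of 0.17. Tm7sf2, a C14 sterol reductase, had 6.96 and 12.1 CPM in wt and 6.08 and 8.65 CPM in dKO libraries. Replicate 2 was the higher library in each genotype, and the log2 fold change was -0.37 with a wide interval (-1.25 to 0.50), and 0.083 without wt replicate 2. Sqle, squalene epoxidase, varied little, from 99.5 to 122 CPM (0.03). Its 95% interval of -0.32 to 0.38 was the narrowest among the members.

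The other sterol enzymes overlapped between genotypes and had log2 fold changes between -0.14 and 0.08. Fdft1, squalene synthase, ranged from 53.4 to 64.7 CPM. Cyp51, lanosterol demethylase, ranged from 59.8 to 93.9 CPM, with both extremes in dKO libraries. Nsdhl and Hsd17b7, which act in removal of the C4 methyl groups, ranged from 20.8 to 28.3 CPM and from 13.9 to 19.98 CPM. Ebp, a sterol isomerase, ranged from 19.0 to 25.8 CPM, and Sc5d, a desaturase, from 13.004 to 16.6 CPM. The summed level of the 11 enzymes was 453 and 489.5 CPM in wt replicates 1 and 2 and 521 and 432 CPM in dKO replicates 1 and 2, so the dKO libraries held both the highest and the lowest sum.

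None of the 5 genes of SREBP control had genotypes that did not overlap, against 33.6% of all genes tested. All 5 intervals lay within 1 log2 unit of 0, against 65.5% of all genes tested. Their median SE was 0.17, against 0.21 for all genes tested. Srebf2 had 200.2 and 294 CPM in wt and 213 and 246 CPM in dKO libraries, a log2 fold change of -0.11 (SE 0.21). The replicate difference within wt was larger than the difference between genotypes. Srebf1 had 42.9 and 52.2 CPM in wt and 40.8 and 45.6 CPM in dKO libraries (-0.14, SE 0.16). Per kb of exon, Srebf2 was 3.66 to 4.42 times the level of Srebf1 across the 4 libraries.

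Scap, the sterol-sensing escort of the SREBPs, had 30.3 and 35.4 CPM in wt and 35.0 and 29.5 CPM in dKO libraries (-0.03, SE 0.17). Insig1, itself a SREBP target and a sensitive readout of the pathway, had 64.7 and 75.7 CPM in wt and 80.9 and 66.3 CPM in dKO libraries (0.07, 95% interval -0.32 to 0.46). The lower dKO value lay between the wt values. Insig2, its relative, had 16.4 and 14.1 CPM in wt and 14.9 and 18.6 CPM in dKO libraries (0.14, SE 0.21). Insig1 was 4.002 to 6.09 times the level of Insig2 per kb of exon.

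All 6 fatty acid genes overlapped between genotypes, while 33.6% of all genes tested did not. Their median log2 fold change was -0.05 (2 positive, 4 negative). Acaca, acetyl-CoA carboxylase, had 77.9 and 109 CPM in wt and 105 and 98.3 CPM in dKO libraries (0.13, SE 0.18), with wt replicate 1 below the other 3. Values of Fasn, Acly and the Scd genes in each library were added after they were seen. Fasn, fatty acid synthase, had 333 and 308 CPM in wt and 371 and 265 CPM in dKO libraries (-0.01, 95% interval -0.46 to 0.44). Acly, which supplies cytosolic acetyl-CoA, had 274 and 336 CPM in wt and 285 and 227 CPM in dKO libraries (-0.26, SE 0.17). Its log2 fold change was -0.10 without wt replicate 2, -0.096 without dKO replicate 2, -0.40 without wt replicate 1 and -0.43 without dKO replicate 1. Elovl6, which extends palmitate, ranged from 109.5 to 158 CPM (0.10).

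The largest differences among the members were between replicates. Scd1, a stearoyl-CoA desaturase that introduces the double bond of oleate, had 31.9 and 79.6 CPM in wt replicates 1 and 2 and 35.1 and 68.1 CPM in dKO replicates 1 and 2. Replicate 2 was 2.50 times replicate 1 in wt and 1.94 times in dKO cells, while the genotype means were 55.8 ± 33.7 and 51.6 ± 23.3 CPM (SD, n = 2 each). The interval of its log2 fold change of -0.11 was the widest of the 29, from -1.33 to 1.10. Without wt replicate 2 the value was 0.70, and without dKO replicate 2 it was -0.66. Scd2, the desaturase gene 87.6 kb away on chromosome 19, showed much smaller gaps, at 166 and 211 CPM in wt and 170.1 and 183 CPM in dKO libraries. From the other lists, Acss2 and Fads2 had a like pattern, and they were picked out once their values were known. Acss2, which makes acetyl-CoA from acetate, had 20.01 and 38.5 CPM in wt and 15.5 and 33.7 CPM in dKO libraries. Fads2, a polyunsaturated fatty acid desaturase, had 20.6 and 43.7 CPM in wt and 17.9 and 29.9 CPM in dKO libraries. The trophoblast marker Krt8 also differed this way, with 128 and 249.5 CPM in wt and 64.2 and 176 CPM in dKO libraries, and the part of such cells in the Scd1 values was not tested.

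The larger of the replicate gaps exceeded the genotype gap on the log2 scale for 27 of 29 members (93.1%, against 76.9% of all genes tested), the exceptions being Fdps and Dhcr7, which were identified from the values. The median replicate gap of the members was 0.28 in wt and 0.24 in dKO cells, and the median genotype gap was 0.13. Over all genes tested these medians were 0.24, 0.21 and 0.15. Replicate gaps are between single libraries and genotype gaps between means of 2, so genotype gaps tend to be smaller where nothing differs. wt replicate 2 was the highest library for 18 members (62.1%, against 27.5% of all genes tested), and dKO replicate 2 the lowest for 13 (44.8%, against 23.2%). Members took 0.244% of all counts in wt replicate 2 and 0.197% to 0.214% in the other libraries. Summed over members, the level was 1987 and 2401 CPM in wt and 2189 and 1988 CPM in dKO libraries. Without wt replicate 2 the median log2 fold change of the 29 members was 0.07, and that of the fatty acid genes was 0.24.

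**Figure D4:**
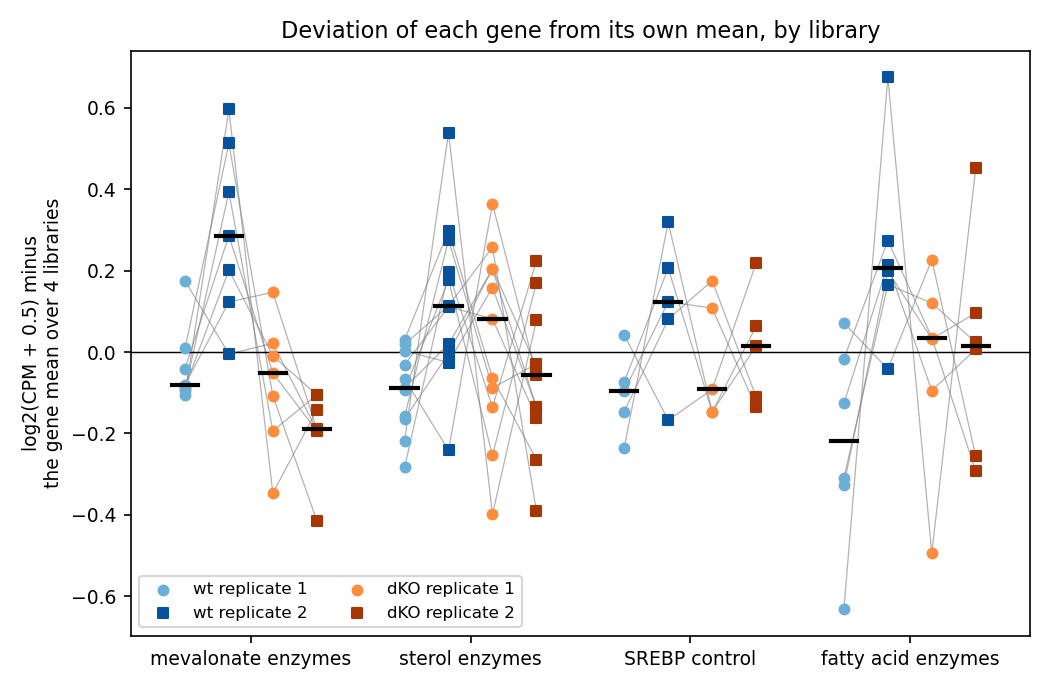
Deviation of log2(CPM + 0.5) of each gene from its own mean over the 4 libraries, by gene group and library; grey lines join the libraries of a gene and black bars are medians. The median of the mevalonate enzymes is 0.29 in wt replicate 2 and between -0.19 and -0.05 in the other libraries, and the widest spread is that of Scd1 among the fatty acid enzymes.

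Levels were compared between genes as CPM per kb of merged exon length. That length joins the exons of every annotated transcript, 4403 bases for Tm7sf2, 4761 for Lbr and 10787 for Lss. Where the transcripts present are shorter, the level per kb is understated, and this was not tested. Averaged over the 4 libraries, Acly was the highest at 53.1 CPM per kb, followed by Scd2 at 33.4, Srebf2 at 33.2, Fasn at 29.1, Insig1 at 23.2 and Elovl6 at 21.6 CPM per kb. Of the sterol enzymes, Sqle (19.8 CPM per kb) and Cyp51 (18.0 CPM per kb) were the highest, and Tm7sf2 was the lowest at 1.92 CPM per kb. Lbr encodes the lamin B receptor, an inner nuclear membrane protein that binds B-type lamins and has the same C14 sterol reductase activity as Tm7sf2. By these merged lengths, Lbr stood at 37.7 CPM per kb, 11.04 to 34.6 times the level of Tm7sf2 in the same library. It had 186 and 144 CPM in wt and 227 and 160.2 CPM in dKO libraries, with overlap and a difference of 0.23 log2 units (SE 0.21, adjusted p = 0.981 in edgeR).

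**Figure D5:**
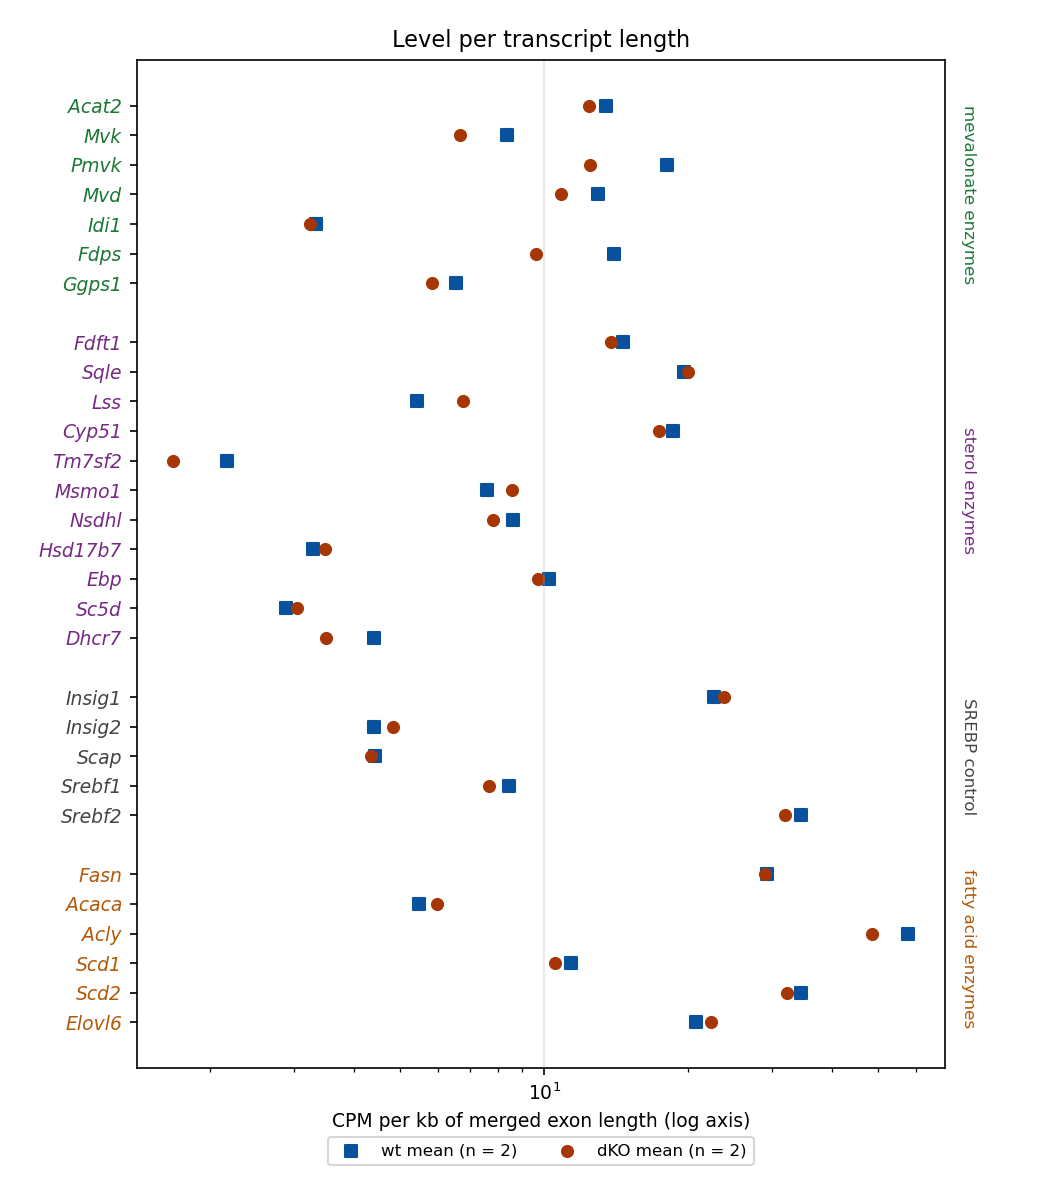
Mean level of each gene in CPM per kb of merged exon length, on a log axis, in wt (squares, n = 2) and dKO cells (circles, n = 2). Acly is the highest and Tm7sf2 the lowest in both genotypes.

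Other genes linked to the pathway, which use or handle its products, regulate it or supply it, were examined next. The 13 genes of the isoprenoid branch, which make dolichol and ubiquinone side chains and prenylate proteins, all passed the filter and none passed the test, with a median log2 fold change of 0.06 and 0 at an unadjusted p under 0.05, against 5.57% of all genes tested. Fnta and Fntb, the subunits of the farnesyltransferase that modifies lamins, had log2 fold changes of -0.15 and -0.04. Fnta had 141 and 125 CPM in wt and 124 and 116 CPM in dKO libraries. Zmpste24, the protease that matures prelamin A, had 71.1 and 68.3 CPM in wt and 81.1 and 66.2 CPM in dKO libraries (0.08). Pggt1b, a subunit of the enzyme that attaches geranylgeranyl groups, had the highest value of the list (0.29, SE 0.16), with 30.9 and 34.4 CPM in wt and 36.2 and 43.5 CPM in dKO libraries. In this list wt replicate 2 was the highest library for 1 of 13 genes.

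Of 22 genes of sterol handling and SREBP processing, 21 passed the filter and 0 passed the test, with a median of 0.02. Nr1h2, which encodes the oxysterol receptor LXR beta, was the one with an unadjusted p under 0.05 (4.76% of the list, against 5.57% of all genes tested). It had 85.7 and 92.5 CPM in wt and 65.8 and 64.2 CPM in dKO libraries, with replicates close together in each genotype, and a difference of -0.45 log2 units (SE 0.12, adjusted p = 0.672 in edgeR). Stard4, a sterol carrier and SREBP target, had 20.01 and 24.7 CPM in wt and 26.1 and 23.7 CPM in dKO libraries (0.15).

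Of 22 genes of fatty acid supply and remodelling, all passed the filter and 0 passed the test, with a median of -0.01 and 3 at an unadjusted p under 0.05 (13.6%, against 5.57% of all genes tested). Slc25a1, the mitochondrial citrate carrier that feeds Acly, had 91.3 and 88.75 CPM in wt and 63.4 and 59.0 CPM in dKO libraries. The difference was -0.56 log2 units (SE 0.12, adjusted p = 0.471 in edgeR). Mcat, of mitochondrial fatty acid synthesis, had 25.3 and 29.8 CPM in wt and 19.6 and 21.4 CPM in dKO libraries (-0.43, SE 0.17). Elovl7, an elongase, had 4.77 and 3.81 CPM in wt and 7.80 and 9.07 CPM in dKO libraries (0.98, SE 0.28, edgeR adjusted p = 0.720).

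Several members share sequence with other genes, and the counting of such reads is not given in the sources used here. In GENCODE M21, 26.7% of the merged exon length of Fdps lies in exons of Gm43738 on the same strand, 12.1% of that of Tm7sf2 in Vps51 on the same strand, and 18.3% of that of Fdft1 in Ctsb on the opposite strand. Near-identical copies of at least 95% identity over 400 bases or more were found for Acaca (Gm5182, 99.2%), Acat2 (Acat3, 97.7%, and Tcp1, 98.7% over 445 bases), Idi1 (Gm13502 and Gm35570), Fdft1 (Gm6781), Ggps1 (Gm5630) and Elovl6 (Gm11295), and Scd1 and Scd2 were 95.5% identical over 623 bases. Counts of these genes are uncertain to that extent.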

How the data were processed

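Libraries were prepared with the Illumina TruSeq RNA kit from Trizol-extracted RNA, per the labels' protocols. The counts are raw reads per Ensembl gene, as the authors deposited them, with 1 column a library. TopHat2 2.0.6, TopHat and HTSeq are named, per the submitters' processing notes, with no roles. Build, annotation and strand setting: not given in the sources used here, though the deposited positions differ from those of GRCm38.p6. Symbols (32919 of 37991 genes) and exon lengths came from GENCODE M21, matched on gene ID. Groups are the genotypes of the titles, and the series' design text calls the samples biological replicates. After filterByExpr and TMM scaling, edgeR 4.0.16 in R 4.3.3 was run with genotype alone in the model (quasi-likelihood test, robust option), and p-values were adjusted by Benjamini-Hochberg over 14027 genes, with a threshold of 0.05. SEs came from the F statistic. The fit was tested on simulated counts. Alternatives were other scalings and filters, DESeq2 1.42.0, limma-voom (limma 3.58.1), a replicate block and each library left out. Copies were found with blastn 2.17.0 against GENCODE M21 transcripts. All pairs of libraries differed beyond sampling noise (chi-square from 13.8 to 33.9 per degree of freedom). The value was 13.8 between the replicates 1 and 16.6 between the replicates 2 of the genotypes. Between replicates of a genotype it was larger, at 21.6 in wt and 21.6 in dKO cells. With 2 replicates a genotype, exact permutation of 1 value cannot go below p = 0.333.

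Members, gene lists and motifs were chosen with earlier results of these data known. Every member is named; values in each library are given for members with an unadjusted p under 0.05, genotypes that do not overlap, the 4 highest and 4 lowest log2 fold changes, and SREBP control. From the other lists, genes with an unadjusted p under 0.05, or else the highest and lowest, were taken, with Lbr, Zmpste24, Fnta, Fntb and Stard4.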

Additional observations from a re-analysis of the deposited data

How the results depend on the processing

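Scaling, filtering, DESeq2, limma-voom and the block moved no median beyond the spread between replicates and changed the sign of 0 of 29 members. In place of 12 called genes there were 80 without the filter, 96 in DESeq2, 5 in limma-voom and between 18 and 27 when 1 library was dropped, with 0 members among them. With a replicate block it was 1299 (9.26% of genes) and 1 member was called, Pmvk (-0.51, adjusted p = 0.0148); the labels do not say what the numbers mark, and deviations of same-numbered libraries correlated across genes (r = 0.68), a property of the data that the design does not state. With 1 library left out, the median ran from -0.15 to 0.069 for all members, -0.42 to -0.081 for mevalonate, -0.15 to 0.083 for sterol, -0.14 to 0.089 for SREBP control and -0.20 to 0.24 for fatty acid genes, each highest without wt replicate 2. Of the members, 9 kept their sign in every such fit but not their size, with log2 fold changes of -0.56 to -0.055 (Mvk), -0.86 to -0.14 (Pmvk), -0.42 to -0.081 (Mvd), -0.78 to -0.26 (Fdps), -0.28 to -0.062 (Ggps1), 0.099 to 0.52 (Lss), 0.049 to 0.29 (Msmo1), -0.47 to -0.19 (Dhcr7) and -0.43 to -0.096 (Acly). For the other 20, none called, the ranges were -0.27 to 0.033 (Acat2), -0.22 to 0.13 (Idi1), -0.20 to 0.045 (Fdft1), -0.12 to 0.18 (Sqle), -0.46 to 0.20 (Cyp51), -0.72 to 0.083 (Tm7sf2), -0.35 to 0.10 (Nsdhl), -0.15 to 0.35 (Hsd17b7), -0.31 to 0.13 (Ebp), -0.10 to 0.25 (Sc5d), -0.078 to 0.21 (Insig1), -0.029 to 0.29 (Insig2), -0.15 to 0.095 (Scap), -0.28 to 0.011 (Srebf1), -0.36 to 0.20 (Srebf2), -0.27 to 0.22 (Fasn), -0.098 to 0.39 (Acaca), -0.66 to 0.70 (Scd1), -0.26 to 0.085 (Scd2) and -0.14 to 0.39 (Elovl6). A fit with 1 library in a genotype assumes that it varies like the other genotype.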
